A study of Mus musculus with 3 samples.

Results

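Conventional dendritic cells in B16-F10 tumors were selected from single-cell RNA-Seq data by a rule on detected genes, and 80 of the 24668 barcodes that passed the cell filter met it. A cell barcode marks 1 droplet, and a unique molecular identifier (UMI) marks 1 captured RNA molecule. The rule asked for a UMI of at least 3 of 11 genes (Flt3, Zbtb46, Xcr1, Clec9a, Cd209a, Ccr7, Fscn1, Batf3, Ccl22, Naaa and Kmo) and for UMIs of both H2-Aa and Cd74. It left out barcodes with a UMI of the T cell genes Cd3e or Cd3d, the B cell gene Cd79a, the NK cell gene Ncr1 or the plasmacytoid gene Siglech, those with at least 2 of C1qa, C1qb and C1qc, and those in which the melanoma genes Dct and Pmel reached 0.5% of UMIs. The cell filter, applied to 27374 deposited barcodes, asked for 200 genes or more and for no more than 20% of UMIs from mitochondrial genes.

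Conventional dendritic cells are bone marrow-derived antigen-presenting cells that depend on the cytokine receptor Flt3. The cDC1 subset, which needs Batf3 and Irf8, takes up dead cells through receptors such as Clec9a and presents their antigens on MHC class I to CD8+ T cells, and its receptor Xcr1 binds a chemokine released by T and NK cells. The cDC2 subset carries Cd209a, Sirpa and Clec10a and presents mainly on MHC class II to CD4+ T cells. Dendritic cells of either subset can mature, switch on Ccr7, the receptor that guides them to draining lymph nodes, and express the actin-bundling protein Fscn1 and the chemokine Ccl22.

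The tumors grew from B16-F10 cells, an established C57BL/6 mouse melanoma line, in C57BL/6J mice of 6 to 8 weeks. One library was labelled shCtrl and 2 were labelled shMib2. Tumors of 3 mice were pooled for each, so a library is 1 sample and mice cannot be told apart within it. The short hairpin RNA (shRNA) was carried by the melanoma cells and not by the host, and the dendritic cells are therefore wild-type host cells in all 3 libraries. The 2 libraries labelled shMib2 (replicates 1 and 2) carried different shRNAs against Mib2, an E3 ubiquitin ligase that the study examined for its part in the surface level of PD-L1. Mib2 RNA in melanoma barcodes was 2.49, 3.13 and 2.66 counts per 1000000 UMIs (CPM) in the library labelled shCtrl and in shMib2 replicates 1 and 2, with the lowest value under the label shCtrl. Directions below are therefore those between the libraries as labelled.

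The libraries held 9558, 9428 and 8388 barcodes with 243926188, 190904274 and 203298455 UMIs, with shCtrl first and the replicates of shMib2 after it, the order kept below. The dendritic cells had medians of 4128, 4103 and 5496 UMIs, and the 80 cells ranged from 833 to 17220. Between 45 and 55 barcode sequences of each library also occurred in another, and none of them belonged to a dendritic cell. A doublet caller marked the 622, 587 and 424 barcodes of the 3 libraries with the highest scores, and no dendritic cell was among them. These numbers were set in advance, at 0.8% for every 1000 barcodes tested. The rule had already left out barcodes with RNA of several other cell types, so this is a weak check.

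The library labelled shCtrl held 1 dendritic cell, against 32 and 47 in the libraries labelled shMib2. As a share of all barcodes that passed the filter, this was 0.0113% (Wilson 95% interval 0.00200 to 0.0642) in the library labelled shCtrl. It was 0.373% (0.265 to 0.527) in shMib2 replicate 1 and 0.645% (0.486 to 0.857) in replicate 2. Both intervals of the libraries labelled shMib2 lay above that of shCtrl, and the ratio of the mean share to that of shCtrl was 44.9 ± 16.9 (SD of the 2 single ratios, 32.9 and 56.9). With a single dendritic cell in the denominator, the exact interval of the ratio of the summed counts ran from 7.66 to 1757. These intervals cover counting error only.

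The size of this difference depended on what the dendritic cells were counted against. Melanoma barcodes made up 92.7% of the library labelled shCtrl and 77.7% and 57.4% of those labelled shMib2. Among barcodes under the melanoma limit, dendritic cells were 0.156% (0.0275 to 0.877; 1 of 642) in shCtrl, 1.68% (1.19 to 2.36; 32 of 1910) in shMib2 replicate 1 and 1.51% (1.14 to 2.01; 47 of 3103) in replicate 2, with a ratio of 10.2 ± 0.730 (SD, n = 2). Among dendritic cells and phagocytes together, the phagocyte classes being defined further down, they were 1 of 8 cells, 32 of 120 and 47 of 247, or 12.5% (2.24 to 47.1), 26.7% (19.6 to 35.2) and 19.0% (14.6 to 24.4). On this last scale the intervals of all 3 libraries overlapped, and the ratio was 1.83 ± 0.432 (SD, n = 2). One library against 2 allows no exact permutation p below 0.33, so no test of the shares was run, and the shares alone do not tell more dendritic cells from fewer melanoma cells among the barcodes.

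**Figure D1:**
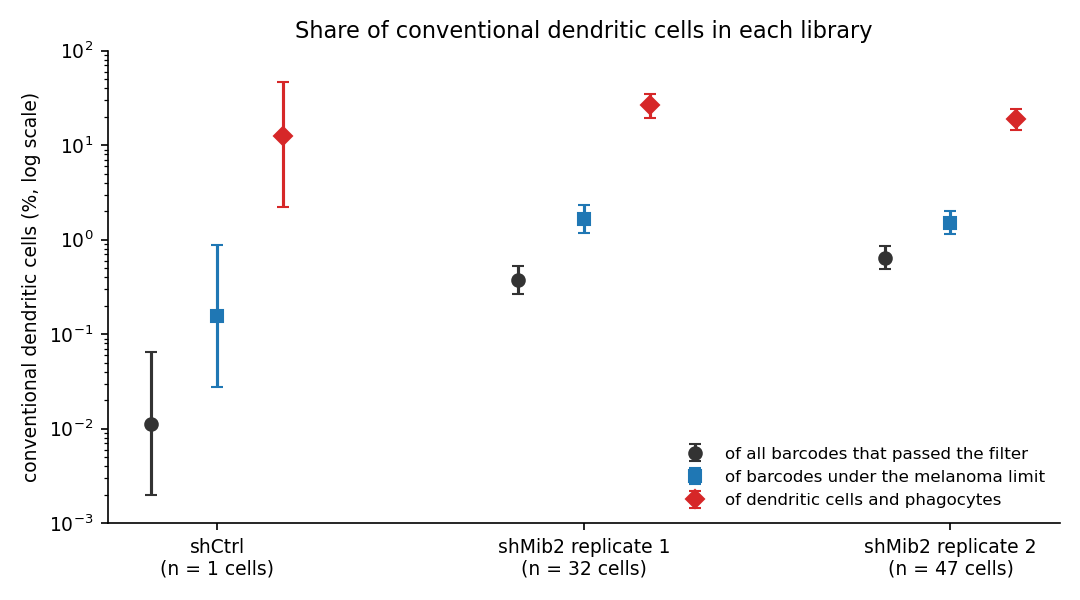
Share of conventional dendritic cells (%, log scale) in the library labelled shCtrl and the 2 labelled shMib2, of all barcodes that passed the filter (circles), of barcodes under the melanoma limit (squares) and of dendritic cells and phagocytes (diamonds), with Wilson 95% intervals. The shares of both libraries labelled shMib2 lie above the shCtrl interval on the first 2 scales and within it on the third, where shCtrl has 8 cells in all.

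The 2 libraries labelled shMib2 also differed from each other on the first scale. Replicate 2 held 1.73 times the share of replicate 1 among all barcodes (exact interval 1.08 to 2.80), but 0.904 times (0.565 to 1.46) among barcodes under the melanoma limit. Other host cells were likewise fewer among the barcodes of the library labelled shCtrl: T cells were 0.851%, 6.19% and 11.3%, NK cells 0.215%, 1.74% and 3.94%, and B cells 0.760%, 1.00% and 1.91%, in the same order. For B cells the intervals of shCtrl (0.599 to 0.964) and shMib2 replicate 1 (0.814 to 1.24) overlapped.

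The rule sits on small numbers of molecules, and its threshold decided many members. Exactly 3 of the 11 genes were detected in 0, 15 and 19 dendritic cells and 4 or more in 1, 17 and 28, with at most 7 genes in 1 cell. Just outside it, 2, 11 and 31 barcodes had 2 of the genes and met every other condition, with median totals of 2268, 3120 and 5558 UMIs. In the libraries labelled shMib2 the members with exactly 3 genes had medians of 3929 and 4983 UMIs. A further 9 and 8 barcodes of these libraries were left out for a UMI of Cd3e or Cd3d, and had medians of 7881 and 19954.5 UMIs. The melanoma limit left out 4 and 12 more, with medians of 41894 and 59145.5 UMIs.

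Among the 80 cells the genes of the rule were detected at different rates, which is a description of the selection and not a result. Naaa, a lysosomal amidase of cDC1, was found in 65, the transcription factor gene Batf3 in 55, Flt3 in 38, Xcr1 in 34, Clec9a in 32, Kmo in 22, Cd209a and Ccr7 in 17 each, Zbtb46, a transcription factor of conventional dendritic cells, in 16, Ccl22 in 14 and Fscn1 in 10. They fell into groups: Xcr1 and Clec9a were found together in 22 cells, and all 10 cells with Fscn1 also held Ccr7. No cell with Cd209a held Xcr1, Clec9a, Fscn1 or Zbtb46. In B cells, which should lack these genes, Xcr1, Clec9a and Cd209a were found in 0 of 86 and 0 of 139 barcodes of the libraries labelled shMib2, so that shares of up to 3.49% and 2.16% cannot be told from 0, and Naaa in 1 and 0. The B cells had medians of 841.5 and 1443 UMIs, less than those of the dendritic cells. Ccr7, which B cells use too, was found in 22 of 86 and 51 of 139 of them.

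Markers of other cell types were counted in the dendritic cells as a check of the name, apart from Cd3e, Cd3d, Cd79a, Ncr1, Siglech and most C1q UMIs, which the rule itself left out. Of the lists for 6 NK cell genes, 4 mast cell and basophil genes and 5 neutrophil genes, 1 UMI in all was found. The list of 7 T cell genes gave 4 and 4 UMIs in the libraries labelled shMib2, with Cd4 at 0 in both and the 4 of replicate 1 all from Cd8a. The 6 B cell genes gave UMIs of Ighm only, in 13 of 32 and 18 of 47 cells, with Igkc, Ms4a1 and Cd79b at 0. Of the 8 plasmacytoid genes, 4 and 3 were detected, with 85 and 148 UMIs in 28 of 32 and 42 of 47 cells. Most of these were of Bst2 (71 and 120), an interferon-induced gene of many cell types, and Tcf4 gave 10 and 23, while Ly6d, Cox6a2 and Klk1 were at 0. Langerhans cell genes gave 1 and 2 UMIs, fibroblast genes 6 and 9 and endothelial genes 2 and 9. The 10 macrophage markers summed to 95.1 and 93.9 CPM against 19786 and 14785 CPM in C1q macrophages, and the 10 monocyte markers to 2058 and 1461 CPM against 15456 and 16209 CPM in monocyte-like phagocytes, with Vcan and Chil3 at 0 in the dendritic cells. These lists hold gate genes, so selection sets part of both gaps: C1qa, C1qb and C1qc in the first, and Lyz2, Plac8, Ly6c2, Ccr2, Csf1r and Fn1 in the second. Plac8 alone gave 165 of the 303 and 230 of the 436 monocyte marker UMIs of the dendritic cells. Ms4a7, Adgre1 and Trem2, which no gate used, were at 0 in the dendritic cells. RNA of the tumor was present: the 5 melanoma genes summed to 516 and 496 CPM, against 17516 and 18676 CPM in melanoma barcodes, and Dct was found in 17 of 32 and 26 of 47 cells. Hemoglobin genes summed to 143 and 1156 CPM, and 206 of the UMIs of Hbb-bs in replicate 2 came from 1 cell. The part of this RNA in the results was not tested.

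To describe how the dendritic cells varied among themselves, each was given the state whose list of 10 markers had the most genes detected, with at least 2 and no tie. By this count 52 cells were cDC1-like, 14 cDC2-like and 12 mature migratory-like, and 2 had no state. The single cell of the library labelled shCtrl was cDC1-like. 2 cDC1-like cells of replicate 2 held 5 and 2 Cd209a UMIs and none of Irf8, Xcr1 or Clec9a. In shMib2 replicate 1 the 32 cells were 22 cDC1-like (68.8%, interval 51.4 to 82.0), 7 cDC2-like (21.9%, 11.02 to 38.8) and 3 mature (9.38%, 3.24 to 24.2). In replicate 2 the 47 cells were 29 cDC1-like (61.7%, 47.4 to 74.2), 7 cDC2-like (14.9%, 7.41 to 27.7) and 9 mature (19.1%, 10.4 to 32.5). cDC1-like cells were the majority in both libraries, and the intervals of the cDC2-like and mature shares overlapped. With members thinned to 1000 UMIs, cDC1-like cells were 18 of 32 and 17 of 46, no longer a majority in replicate 2. Depth moved with state in replicate 2, with medians of 7292 UMIs in cDC1-like, 5040 in cDC2-like and 3643 in mature cells, and its part in the shares was not tested. The list of cDC1 markers holds 4 genes of the rule, against 1 on the cDC2 list and 3 on the mature list, so the rule itself bears on these shares.

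**Figure D2:**
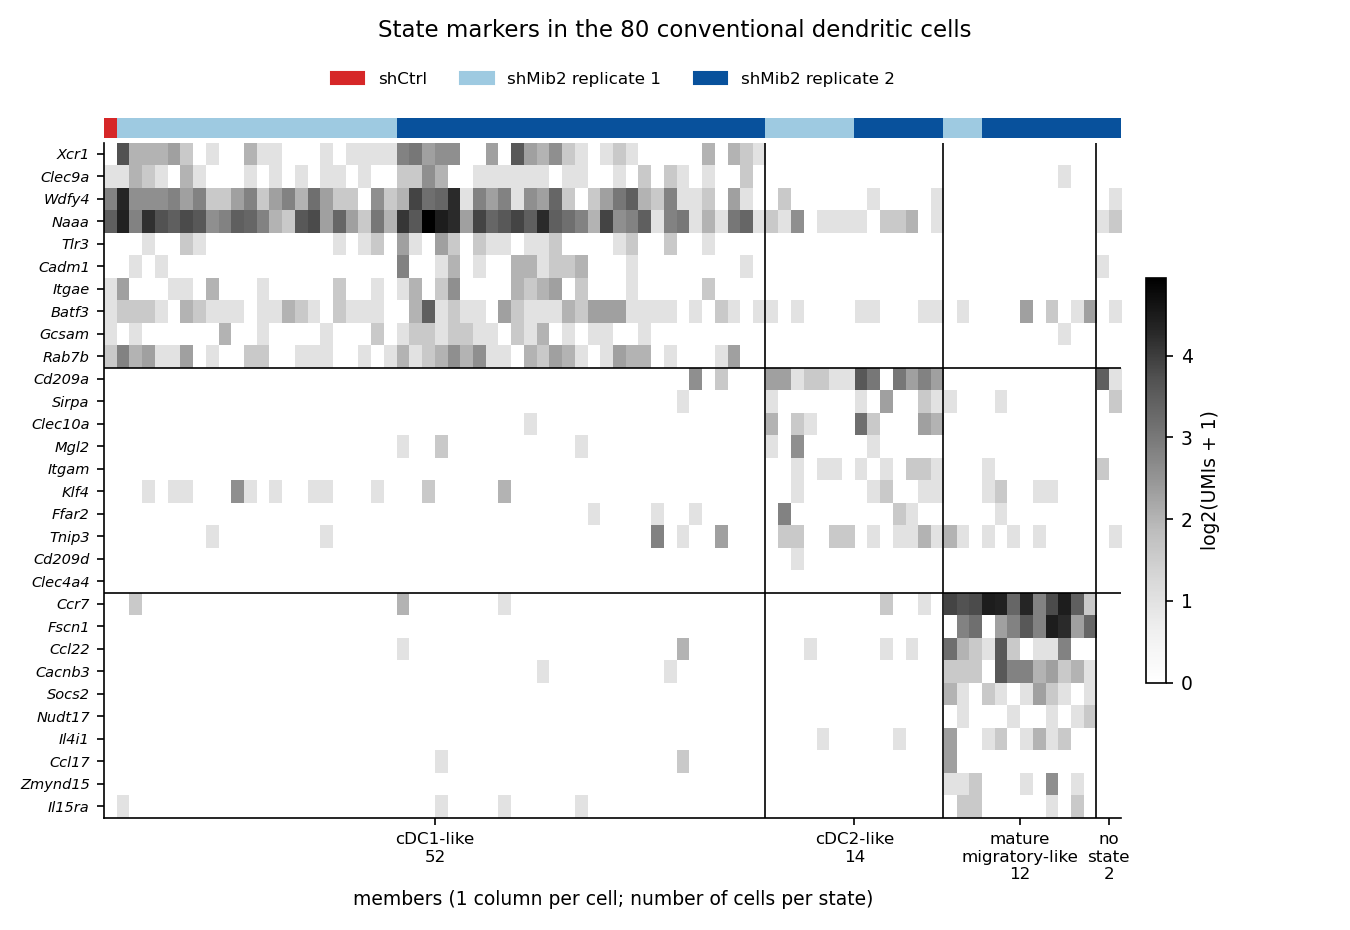
UMIs of the 30 state markers, as log2(UMIs + 1), in the 80 conventional dendritic cells, 1 column per cell, grouped by state and, within it, by library (colored bar) and falling total UMIs. Markers of the cDC1, cDC2 and mature lists are densest in the 52, 14 and 12 cells of their own state, and UMIs of Naaa, Batf3, Klf4, Tnip3, Wdfy4, Cd209a and others occur outside it.

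The cDC1-like cells had the highest levels of Irf8 and of some genes of dividing cells. Because the states were cut from the same cells, gene levels in them are given without a test. Wdfy4, which cDC1 need to cross-present cell-associated antigen (chromosome 14, 32959547 to 33185508 of mm10), stood at 874 and 616 CPM in cDC1-like cells of replicates 1 and 2, against 96.3 and 58.1 CPM in cDC2-like cells and no UMI in the mature ones. It was found in 21 of 22 and 26 of 29 cDC1-like cells. Irf8, the transcription factor on which cDC1 depend, reached 1979 and 1658 CPM in cDC1-like, 337 and 203 CPM in cDC2-like and 1124 and 506 CPM in mature cells. In both libraries cDC1-like cells were the highest and cDC2-like cells the lowest for Irf8. Tlr3, the receptor for double-stranded RNA, and the adhesion gene Cadm1 were detected in cDC1-like cells of both libraries (6 of 22 and 14 of 29, and 2 of 22 and 12 of 29) and in no cell of the cDC2-like or mature states. Rab7b and Itgae, the integrin chain CD103, showed the same pattern. Wdfy4 and these 4 genes are on the list that set the state, so their place in it is by construction.

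Outside the lists, the genes highest in cDC1-like cells relative to the other members included Ppt1, a lysosomal thioesterase, with 60 and 135 UMIs against 0 and 5 in all other members of the same library. Mpeg1, which encodes perforin-2, had 69 and 112 UMIs against 1 and 3, and the septin gene Sept3 had 19 and 64 against 0 and 1. Some genes of dividing cells were detected mainly in cDC1-like cells. Pclaf, a PCNA-binding factor, had 24 and 47 UMIs against none, Stmn1, a regulator of microtubules, 47 and 57 against 2 and 0, and Birc5, which acts in mitosis, 19 and 25 against none. The cDC1-like cells also hold most UMIs of all dendritic cells, and few cells gave most of these: 2 cells held 31 of the 47 Stmn1 UMIs of replicate 1 and 2 held 34 of the 57 of replicate 2. Birc5 was found in 8 of 22 and 5 of 29 cDC1-like cells, and Top2a in 5 of 22 and 5 of 29. Hmgb2, a chromatin protein, was at 994 and 708 CPM in cDC1-like cells and at 48.2 and 116 CPM in cDC2-like and 102 and 101 CPM in mature cells.

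The cDC2-like cells, 7 in each library, were set by a list that holds Cd209a, Clec10a and Itgam, whose levels are given for description. Cd209a (chromosome 8, 3743397 to 3748984) was at 722 and 1133 CPM and Clec10a at 289 and 494 CPM, against 0 and 32.4 and 0 and 4.63 CPM in cDC1-like cells. S100a4 and S100a6, calcium-binding proteins of motile cells, stood at 6454 and 5928 CPM and at 4527 and 4533 CPM, against 229 and 1068 CPM and 395 and 985 CPM in the other members. Itgam, the integrin chain CD11b, was found in 3 of 7 and 5 of 7 cells, in no cDC1-like cell and in 1 mature cell. Lyz2, lysozyme of phagocytes, was at 1734 and 639 CPM, above the 351 and 315 CPM of cDC1-like cells in both libraries. Irf4, a transcription factor of cDC2, gave 1 UMI in all cDC2-like cells. The chemokine genes Cxcl9 and Cxcl10 had 32 and 3 and 29 and 25 UMIs in these cells. Monocytes also express Cd209a, and 3 of 44 and 12 of 106 monocyte-like phagocytes held a UMI of it. Off the list, Ccl6 was at 674 and 349 CPM in cDC2-like cells, against 7.91 and 37.9 CPM in the other members. Zeb2 was at 482 and 145 CPM, against 7.91 and 34.1 CPM, and Cybb, Ms4a4c, Ms4a6c and Fcer1g also ranked high. No cell with Cd209a held Zbtb46, and whether the cDC2-like cells derive from monocytes was not tested.

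The mature migratory-like cells, 3 and 9, were the main source of Ccr7, Fscn1, Ccl22 and Ccl5 UMIs. Ccr7 (chromosome 11, 99144196 to 99155077) was found in all 12, at 3986 and 3061 CPM, against 17.1 and 18.5 CPM in cDC1-like cells. Fscn1 (chromosome 5, 142960343 to 142973185) was found in 2 of 3 and 8 of 9 mature cells and in no cell of the other states, and Ccl22, a chemokine that attracts regulatory T cells through CCR4, in 3 of 3 and 6 of 9. Naaa was found in no mature cell, and in 11 of the 14 cDC2-like and all 52 cDC1-like cells. All of these belong to the rule. Off the list, Ccl5, the chemokine RANTES (chromosome 11, 83525778 to 83530518), was detected in all 12 mature cells, with 248 of the 250 Ccl5 UMIs of the dendritic cells of replicate 1 and 210 of the 212 of replicate 2. In replicate 1 the 3 cells held 1, 27 and 220 UMIs, so 1 cell gave most of them, and in replicate 2 the 9 cells ranged from 8 to 39 with a median of 19. Without the highest cell of each library the level was 4781 and 4726 CPM. B cells gave Ccl5 UMIs in 4 of 86 and 11 of 139 barcodes.

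The levels of Cd274 and Cd200, 2 genes picked from the 16 of the costimulation list, were highest in the mature cells. Cd274, which encodes PD-L1 (chromosome 19, 29367455 to 29388095), was at 307 and 354 CPM in mature cells, at 25.7 and 18.5 CPM in cDC1-like cells and at 48.2 and 29.1 CPM in cDC2-like cells. A UMI of it was found in 2 of 3 and 7 of 9 mature cells, 3 of 22 and 4 of 29 cDC1-like cells and 1 of 7 and 1 of 7 cDC2-like cells, so 9 of the 18 cells with Cd274 were mature, and in replicate 1 only 3 of its 7 UMIs were in mature cells. B cells held one in 3 of 86 and 6 of 139 barcodes. Cd200, the ligand of an inhibitory receptor, was found in 2 of 3 and 8 of 9 mature cells and in no cell of the other states. Il12b, the shared subunit of IL-12 and IL-23, gave 7 and 11 UMIs in mature and 5 and 3 UMIs in cDC1-like cells, and Relb, an NF-kB subunit of maturing dendritic cells, stood at 613 and 506 CPM in mature against 25.7 and 50.9 CPM in cDC1-like cells. Tbc1d4, Map4k4 and the tetraspanin gene Cd63 had the same order. H2-DMb1, whose product loads peptides onto MHC class II, went the other way. It had 0 and 3 UMIs in mature cells against 123 and 189 in cDC1-like cells. Ciita, the master regulator of class II genes, had 0 and 1 UMIs in mature cells against 14 and 47. These are UMIs and not levels, and the mature cells held fewer UMIs in all. The 3 of replicate 1 held 1657, 4200 and 3928, so their 0 for Ciita cannot be told from the cDC1-like level. H2-Ab1 was at 2862 and 2985 CPM in mature and 8877 and 8556 CPM in cDC1-like cells.

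**Figure D3:**
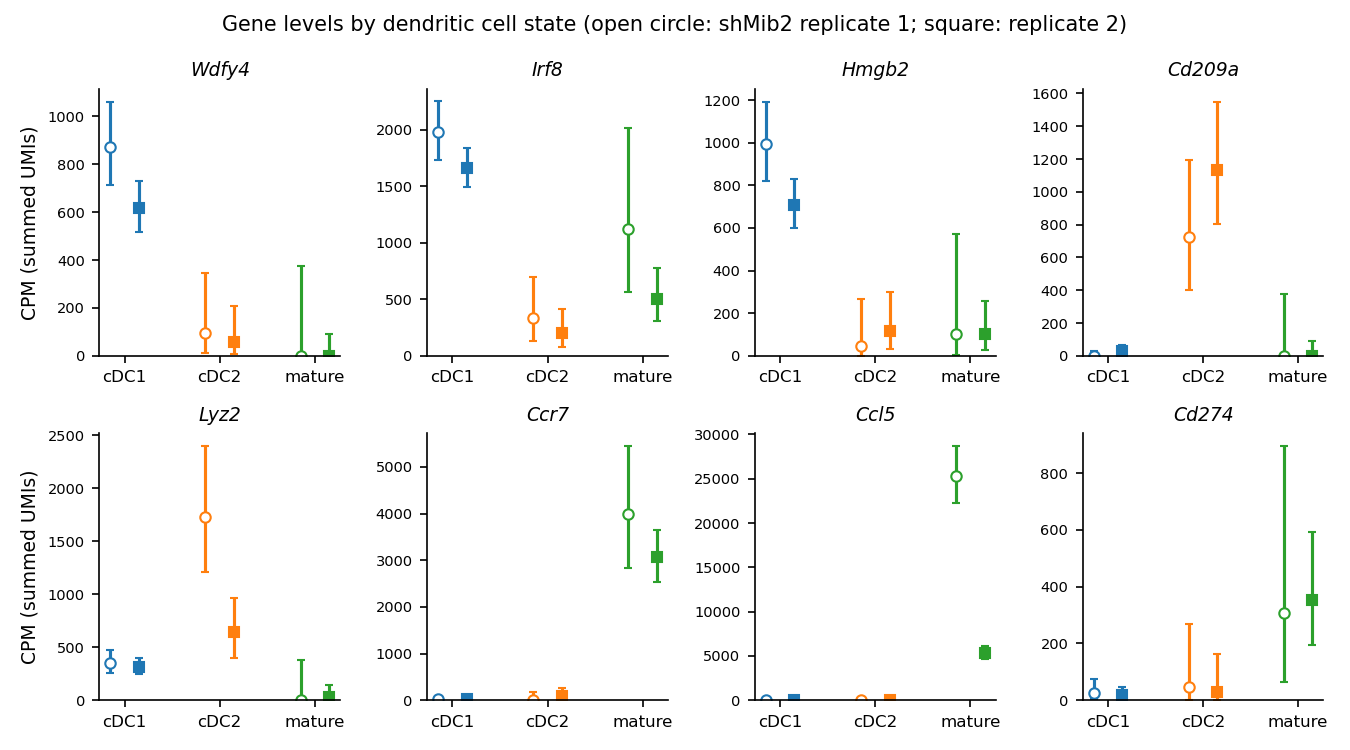
Level (CPM of summed UMIs, linear axes that start at 0 and differ in range) of 8 genes in cDC1-like, cDC2-like and mature migratory-like cells of shMib2 replicate 1 (open circles) and replicate 2 (filled squares), with exact Poisson 95% intervals that cover counting error only. Wdfy4 and Hmgb2 are high in cDC1-like, Cd209a in cDC2-like and Ccr7 and Ccl5 in mature cells of both libraries, and the Ccl5 value of replicate 1 rests mostly on 1 cell with 220 UMIs.

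Between the 2 libraries labelled shMib2 class II levels over all dendritic cells were close, and those of some other genes were not. H2-Ab1 was at 7979.7 and 7797 CPM, Cd74 at 18316 and 18037 CPM and Irf8 at 1691 and 1297 CPM. Tnfsf9, the costimulatory ligand 4-1BBL, had no UMI in the 32 cells of replicate 1, so that up to 9.38% of cells could hold one at this depth, and 31 UMIs in 18 of 47 cells of replicate 2, in all 3 states. In monocyte-like phagocytes Tnfsf9 was found in both libraries, in 14 of 44 and 31 of 106 cells. Cxcl10, an interferon-induced chemokine, was found in 5 of 32 and 13 of 47 cells, with 1 and 79 UMIs in cDC1-like cells. Fabp5, a fatty acid-binding protein, gave 22 and 244 UMIs, of which 13 and 235 were in the mature cells. The shRNA, the mice and the library all differ between these replicates and cannot be told apart, and the genes of this paragraph other than H2-Ab1, Cd74 and Irf8 were picked for their difference.

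The single dendritic cell of the library labelled shCtrl had 4128 UMIs and 1626 genes. It held UMIs of Flt3 (1), Clec9a (1), Batf3 (1) and Naaa (10), as well as 6 of Wdfy4, 9 of Irf8, 12 of Il1b, 103 of Cd74 and 49 of H2-Ab1, and none of Ccr7, Ccl5, Cd209a or Cd274. With 1 cell, gene levels of dendritic cells could not be compared between the libraries labelled shCtrl and shMib2.

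Within the libraries labelled shMib2, dendritic cells were compared with the 2 other kinds of mononuclear phagocyte, as UMIs summed per class and library, by edgeR's quasi-likelihood test with the library as a block and Benjamini-Hochberg adjustment. C1q macrophages were barcodes with at least 2 of the complement genes C1qa, C1qb and C1qc, and monocyte-like phagocytes had at least 3 of Lyz2, Plac8, Ly6c2, Ccr2, Csf1r and Fn1. The monocyte-like class also had to hold fewer than 2 of the C1q genes and fewer than 3 of the 11 rule genes. Dendritic cells were chosen for the rule genes, so the gates bear on other genes expressed along with them. The part of this selection in the contrasts was not tested. The monocyte gate also took in fibroblasts: 18 of 62 and 23 of 129 of its barcodes carried all 4 of Col1a1, Col1a2, Col3a1 and Dcn, with medians of 14741.5 and 13466 UMIs. Gene values are therefore given against phagocytes without barcodes that had at least 2 of these 4 genes, a choice made after seeing the data, which left 25 and 68 macrophages and 44 and 106 monocyte-like cells.

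Against macrophages, 246 of 2395 genes tested were higher in dendritic cells (10.3%) and 360 lower (15%). Against monocyte-like phagocytes, 273 of 3241 were higher (8.42%) and 410 lower (12.7%). Of the 2305 genes tested in both, 157 were higher in both contrasts and 236 lower in both; the contrasts share the dendritic cell sums. With the classes as gated, 201 of 2459 (8.17%) and 308 (12.5%) genes were called against macrophages, and 650 of 4850 (13.4%) and 1007 (20.8%) against the monocyte gate. A gene with UMIs in 1 class only enters the test through that class, so the list counts and medians below include genes that had to differ in that direction. These p-values rest on 2 libraries, gate genes were left out of all counts, and macrophages had medians of 1279 and 1397 UMIs. DESeq2 called fewer genes, 148 and 151 in the comparisons without fibroblast barcodes, and edgeR calls that it did not make are given with the results below.

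The 10 genes ranked highest above macrophages by fitted fold change included 5 with no macrophage UMI, whose rank depends on the prior count of the fit. H2-Ob, a chaperone subunit that modulates class II peptide loading, had 19 and 23 UMIs in dendritic cells and none in macrophages, and was at least 6.62-fold higher with 3 counts over both macrophage sums as the floor. Sept3 was at least 13.2-fold and Jaml, an adhesion molecule of leukocytes, at least 13.6-fold higher on the same floor, followed by Txndc16 (at least 9.14-fold) and the calcium channel gene Itpr1 (at least 7.72-fold). Tbc1d4, a Rab GTPase-activating protein, was at 217 and 506 CPM against 0 and 5.97 CPM, with 1 macrophage UMI in all, and was 86.5-fold higher by summed UMIs (exact interval 15.3 to 3435), a fitted log2 fold change of 6.33 (SE 0.70, adjusted p = 1.89e-08). Ppm1m, a phosphatase, was 48.7-fold higher by summed UMIs (exact interval 8.55 to 1942). The serpin gene Serpinb6b was 40.2-fold (7.02 to 1605), the orphan receptor gene Gpr171 39.7-fold (6.93 to 1587) and Ece1, endothelin-converting enzyme, 34.5-fold (6.00 to 1381) higher on the same measure. These genes were higher in both libraries. DESeq2 did not call Sept3, Itpr1, H2-Ob, Serpinb6b or Ece1 (adjusted p from 0.0547 to 0.614).

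The 10 genes ranked furthest below macrophages included the chemokine genes Ccl8, Ccl12, Pf4 and Ccl7. Ccl8, a monocyte-attracting chemokine, had no UMI in dendritic cells and 1158 and 1158 CPM in macrophages, at least 172-fold lower. Mmp12, macrophage elastase, was at least 117-fold lower, the platelet factor gene Pf4 at least 79.0-fold, Ccl12 at least 76.2-fold, Thbs1 at least 56.4-fold and Ms4a7 at least 50.1-fold. Trem2, a lipid receptor of tumor-associated macrophages, was at least 48.0-fold, the complement receptor gene C3ar1 at least 47.2-fold and the lectin gene Clec4e at least 42.3-fold lower. Ccl7 gave 1 UMI in all dendritic cells against 2108 and 717 CPM in macrophages, and was 446-fold lower (exact interval 79.2 to 17713). Of these 10, DESeq2 called Ccl8 and Ccl7, and gave the others adjusted p from 0.145 to 0.322.

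Against monocyte-like phagocytes, Tbc1d4 (6.01, SE 0.41, adjusted p = 3.5e-06), Sept3 (5.15), Serpinb6b (4.90), H2-Ob (3.59) and Wdfy4 (3.53) were among the highest by fitted log2 fold change, and Sept3, with 3 UMIs in the monocyte-like cells, was 36.8-fold higher by summed UMIs (exact interval 12.2 to 182). Pclaf (3.73) and the histone gene H2afx (3.62) joined them, as did Shtn1 (3.30), Plaat3 (3.13) and Ncoa7 (3.06). The Pclaf call was lost against the monocyte gate with its fibroblast barcodes. Chil3, a chitinase-like protein of monocytes, had no UMI in dendritic cells and 654 and 1064 CPM in the monocyte-like cells, at least 147-fold lower. Vcan, a matrix proteoglycan of classical monocytes, was at least 40.1-fold lower, Thbs1 at least 96.4-fold, Clec4e at least 55.8-fold and the protease inhibitor gene Slpi at least 34.3-fold. Genes of metabolism and lipid handling followed, with Arg1, arginase, at least 26.9-fold lower, Lpl, lipoprotein lipase, 25.4-fold, Mgst1 22.3-fold, the scavenger receptor gene Msr1 19.8-fold and Acod1, which makes itaconate, 19.3-fold. Of the genes in this paragraph DESeq2 did not call H2-Ob and Shtn1 or, among those lower, any but Mgst1 and Msr1 (adjusted p from 0.106 to 0.627).

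MHC class II genes stood mostly higher in dendritic cells than in both other classes. The rule asked for UMIs of H2-Aa and Cd74, and the gates of the other classes did not. This selection bears on genes expressed along with them, and its part in the values below was not tested. H2-Ob and H2-Oa, with no macrophage UMI, passed the filter on counts against macrophages through dendritic cells alone. Of the 12 genes of the list, H2-Aa and Cd74 belonged to the rule and 10 were tested; 8 were higher and 2 lower than in macrophages, with a median log2 fold change of 2.29 (2.21 with genes absent from macrophages at their bound), beside 0.04 over all genes tested. Against monocyte-like phagocytes 8 were higher and 1 lower, with a median of 1.95 beside 0.02. The shares of all genes tested were 10.3% higher and 15% lower against macrophages, and 8.42% and 12.7% against monocyte-like phagocytes. H2-Ab1 was at 7979.7 and 7797 CPM against 1807 and 1923 CPM in macrophages, a log2 fold change of 2.04 (SE 0.28, adjusted p = 9.95e-07), and 2660.3 and 1716 CPM in monocyte-like cells. Ciita stood at 129 and 188 CPM against 0 and 29.9 CPM in macrophages, a difference of 2.87 (SE 0.59, adjusted p = 0.000377). H2-Oa, the partner of H2-Ob, had no UMI in macrophages and 12 and 20 in dendritic cells, and its log2 level was 3.01 above monocyte-like cells. The 2 genes below macrophages were the lysosomal proteases Ctss (-2.03), which trims the invariant chain, and Ctsh (-0.93); against monocyte-like cells Ctss was again lower (-1.26, SE 0.15, adjusted p = 0.000109), but not against the gate with fibroblasts, 0.09 (adjusted p = 0.786). DESeq2 called 4 higher and 1 lower against macrophages, and 2 and 1 against monocyte-like phagocytes, with Ciita, H2-Oa, H2-Ob and Ctsh among those lost.

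The class I and cross-presentation list was mixed. Over all genes tested, 10.3% were higher and 15% lower than in macrophages, and 8.42% and 12.7% than in monocyte-like phagocytes. Of 16 genes, 13 were tested against macrophages, with 4 higher and 1 lower (median 0.54), and 14 against monocyte-like phagocytes, with 4 higher and none lower (median 0.27). The immunoproteasome subunit gene Psmb9 was at 910.0 and 905 CPM against 209 and 197 CPM in macrophages, a log2 fold change of 2.14 (SE 0.34, adjusted p = 1.37e-05), and Psmb8 was higher too (1.58 and, against monocyte-like cells, 1.14). Wdfy4 was at 706 and 456 CPM against 0 and 41.8 CPM in macrophages, a difference of 3.95 (SE 0.50, adjusted p = 2.53e-07). B2m, the light chain of class I, was lower than in macrophages (-1.28, SE 0.30, adjusted p = 0.00137), while the heavy chain genes H2-K1 and H2-D1 were called in neither contrast. Against the monocyte gate with its fibroblasts 9 of 14 were higher and 3 lower, H2-K1 and H2-D1 among the higher. DESeq2 called 3 higher and 1 lower against macrophages, and 3 and 0 against monocyte-like phagocytes.

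Of 16 genes for costimulatory and checkpoint ligands, 6 were tested in each contrast and none was higher in dendritic cells by edgeR; Lgals9, galectin-9, was lower in both (-1.26 and -1.33), a call DESeq2 did not make (adjusted p = 0.645 and 0.622). One call of 6 is near the share over all genes, 25.3% and 21.1% in either direction. Against the monocyte gate with its fibroblasts 3 of 7 were higher and 1 lower (median 0.43, against -0.28 without them), Cd86 among the higher at 1.30 (adjusted p = 0.00379). Cd86 was at 197 and 131 CPM against 209 and 131 CPM in macrophages, a difference of -0.07 (SE 0.39, adjusted p = 0.928). Cd274 was at 47.5 and 63.7 CPM over all dendritic cells, against 116 and 131 CPM in macrophages (log2 fold change -1.13, SE 0.45, adjusted p = 0.0671) and 82.8 and 92.3 CPM in monocyte-like phagocytes (-0.56, SE 0.36, adjusted p = 0.32). In melanoma barcodes Cd274 was at 1.68, 3.40 and 3.40 CPM in the 3 libraries.

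Chemokine genes were mostly lower, beside 15% of all genes tested lower than in macrophages and 12.7% lower than in monocyte-like phagocytes. Of 16, 13 were tested against macrophages, with 1 higher and 10 lower (median -3.91), and 11 against monocyte-like phagocytes, with 2 higher and 8 lower (median -3.34). Ccl8 and Ccl12, with no UMI in dendritic cells, passed the filter on counts through macrophages alone. DESeq2 called 0 higher and 8 lower against macrophages, and 1 and 7 against monocyte-like phagocytes. Cxcl2, which attracts neutrophils, was at 88.3 and 77.1 CPM against 3892 and 3601 CPM in macrophages and 4501 and 4862 CPM in monocyte-like cells, and Ccl2, which attracts monocytes, at 20.4 and 20.1 CPM against 2966 and 1242 CPM in macrophages. Ccl5 was higher than in monocyte-like phagocytes, at 1698 and 711 CPM against 147 and 185 CPM, a difference of 2.54 (SE 0.28, adjusted p = 7.86e-05). Its call against macrophages (1.24, SE 0.43, adjusted p = 0.0311) was lost under 7 of the alternatives, among them the fit without the library block, and 220 of its 250 UMIs in replicate 1 came from 1 cell; in replicate 2 alone the log2 difference was 0.12. Cxcl16, the ligand of Cxcr6, was above monocyte-like cells (2.08, SE 0.33, adjusted p = 0.000996) and was not called against macrophages (-0.17); DESeq2 did not call it in either (adjusted p = 0.233 against monocyte-like cells). Cxcl9, which draws Cxcr3-bearing T cells, was at 359.9 and 352 CPM against 440.2 and 299 CPM in macrophages and was called in neither contrast, though it was higher than the gate with fibroblasts, 1.19 (adjusted p = 0.000297).

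Among receptors outside the gates, 4 of 12 genes were tested in each contrast, and Ccr1, with 3 UMIs in dendritic cells, was lower in both. The median of the receptors turned, with fibroblasts in the gate, from -1.11 to 0.79. Cytokine genes gave 6 tested with 2 lower against macrophages, and 8 tested with 1 higher and 4 lower against monocyte-like phagocytes. The gene called higher was Il12b, with 12 and 14 UMIs in 5 and 5 dendritic cells and no UMI in monocyte-like cells, at least 11.4-fold higher. It passed the filter on counts through dendritic cells alone, so its direction was fixed before the test. Tnf was lower in both contrasts (-2.31 and -2.23) and Il1b lower than in monocyte-like cells (-1.07, SE 0.14, adjusted p = 0.000186). Pattern recognition genes gave 5 tested with 1 lower, and 8 tested with 1 higher, Tlr3, and 4 lower, among them Tlr2 (-2.70). Beside the counts of this paragraph, 10.3% of all genes tested were higher and 15% lower than in macrophages. Against monocyte-like phagocytes these shares were 8.42% and 12.7%, and in lists this short counts of 1 or 2 genes are not read as a difference. Tlr3 gave 1 UMI in monocyte-like cells and was 43.3-fold higher by summed UMIs (exact interval 7.26 to 1763), with an adjusted p of 0.000819. DESeq2 did not call Il12b, Tlr3 or Tnf (adjusted p = 0.764, 0.0815 and, for Tnf, 0.0721 and 0.41). Against the monocyte gate with its fibroblasts the medians turned to 0.39 for cytokines and 0.48 for pattern recognition, from -0.65 and -0.99, and Il1b and Tnf lost their calls, at 0.29 (adjusted p = 0.186) and -0.97 (adjusted p = 0.0784).

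Transcription factor genes were called in both directions. Over all genes tested, 10.3% were higher and 15% lower than in macrophages, and 8.42% and 12.7% than in monocyte-like phagocytes. Of the 16 listed, of which Batf3 and Zbtb46 belonged to the rule, 10 were tested against macrophages, with 3 higher and 3 lower, and 11 against monocyte-like phagocytes, with 3 higher and 4 lower. Irf8 was at 1691 and 1297 CPM against 139 and 191 CPM in macrophages, a log2 fold change of 2.999 (SE 0.36, adjusted p = 9.85e-08), and at 359 and 216 CPM in monocyte-like cells (2.49, SE 0.17, adjusted p = 3.68e-06). Id2, which is needed for cDC1 development, was higher by 0.99 and 1.10, and Relb, with 2 macrophage UMIs, was 11.3-fold higher by summed UMIs (exact interval 2.97 to 96.4) than in macrophages and differed by 2.46 from monocyte-like cells. Zeb2 (-3.13 and -3.37) and Klf4 (-1.83 and -1.20) were lower in both contrasts. Against the monocyte gate with its fibroblasts 6 of 11 were higher and 3 lower, and the median turned from -0.20 to 0.89. DESeq2 did not call Id2, Relb or Klf4 in either contrast (adjusted p from 0.171 to 0.803).

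The type I interferon list had 8 genes tested against macrophages, with 1 higher and 5 lower (median -1.42), and 7 against monocyte-like phagocytes, with 1 higher and 3 lower (median -0.56). Isg15, a ubiquitin-like modifier, was at 346 and 312 CPM against 1019 and 651 CPM in macrophages (-1.32, SE 0.31, adjusted p = 0.00151), and Rsad2, viperin, was lower by edgeR in both (-2.15 and -1.91). The gene that was higher in both was Ifi205, at 346 and 342 CPM against 69.5 and 29.9 CPM in macrophages (3.07, SE 0.48, adjusted p = 7.46e-06); it belongs to a cluster of near-identical paralogs whose reads may be split. The interferon gamma list gave 2 lower of 6 tested and 2 lower of 8 tested, Gbp2 (-2.39 and -2.76) and Cxcl10 (-0.86 and -1.62) in both; at these sizes the counts lie near the 15% and 12.7% lower over all genes. DESeq2 did not call Isg15 in either contrast, Rsad2 or Cxcl10 against macrophages, or Gbp2 against monocyte-like cells (adjusted p from 0.0847 to 0.523).

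Genes of phagocytosis, the lysosome and lipid transport were mostly lower. Over all genes tested, 15% were lower than in macrophages and 12.7% lower than in monocyte-like phagocytes. Of 18, all 16 that were tested were lower than in macrophages (median -3.74), and 14 of 15 were lower than in monocyte-like phagocytes (median -2.92). Trem2 and Lpl, with no UMI in dendritic cells, passed the filter on counts against macrophages through macrophages alone. Against the monocyte gate with its fibroblasts 12 of 15 were lower, with a median of -2.10. Apoe, a lipid carrier, was at 40.7 and 33.5 CPM against 8989 and 4855 CPM in macrophages and 736 and 499 CPM in monocyte-like cells, log2 fold changes of -7.45 (SE 0.40, adjusted p = 7.08e-15) and -3.95 (SE 0.28, adjusted p = 3.77e-06). The lysosomal proteases Ctsd and Ctsb were at 34.0 and 50.3 CPM and 177 and 184 CPM in dendritic cells, against 1807 and 2066 CPM and 5282 and 3457 CPM in macrophages. Fabp5 was the gene of the list not called against monocyte-like cells (-0.42). Apoe, Fcgr1 and Trem2 are also macrophage markers, and the macrophage class was gated on complement genes. DESeq2 called 12 of the 16 lower against macrophages and 9 of the 15 against monocyte-like phagocytes.

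Cell cycle genes were higher than in monocyte-like phagocytes, with 8 of 9 tested higher and none lower (median 1.91), and 2 of 7 higher than in macrophages (median 0.67). Stmn1 was at 333 and 191 CPM against 46.0 and 37.8 CPM in monocyte-like cells (2.53, SE 0.29, adjusted p = 0.000106) and Mki67, a marker of cycling cells, at 115 and 57.0 CPM against 0 and 4.20 CPM, 22.3-fold higher by summed UMIs (exact interval 5.72 to 192). With fibroblasts left in the monocyte gate, 4 of 12 were higher and 0 lower, with a median of 0.00, and Mki67 stood at -0.05 (adjusted p = 0.937) and Top2a at 0.06 (adjusted p = 0.924). DESeq2 called 4 of the 9 against monocyte-like phagocytes, without Mki67 (adjusted p = 0.0917), and did not call Top2a against macrophages (adjusted p = 0.406). Against macrophages the 2 were Top2a, 9.22-fold higher by summed UMIs (exact interval 2.39 to 78.8), and the histone gene H2afz (1.29). Few cells gave much of the Stmn1 and Top2a RNA. In replicate 1, 2 cDC1-like cells held 17 and 14 of the 49 Stmn1 UMIs of dendritic cells. In replicate 2, 2 cDC1-like cells held 23 and 11 of 57 Stmn1 UMIs and 12 and 10 of 28 Top2a UMIs. The cytoskeleton and migration list gave 2 higher and 2 lower of 7, and 3 higher of 9, with Tbc1d4 and Actg1, gamma-actin, higher in both (for Actg1, DESeq2 gave adjusted p = 0.0541 and 0.343); Fscn1, on the same list, belonged to the rule. Immediate early genes, which tissue dissociation can induce, gave 1 higher and 5 lower of 14 against macrophages and 9 lower of 14 against monocyte-like phagocytes, with Jun lower in both (-2.19 and -1.61). The shares over all genes tested were 10.3% higher and 15% lower against macrophages, and 8.42% and 12.7% against monocyte-like phagocytes. With fibroblasts in the monocyte gate, 6 of 10 were higher and 2 lower on the cytoskeleton list, 1 of 14 were higher and 3 lower among immediate early genes, and 2 of 8 were higher and 2 lower on the interferon gamma list. Of the 10 genes of mind bomb and Notch, only Rbpj against both classes (0.15 and -0.07) and Notch2 against monocyte-like cells (1.32) had enough UMIs to test, and neither was called. Against the gate with fibroblasts 2 of 3 were higher and 1 lower, with Rbpj at 0.65 (adjusted p = 0.0434) and Notch2 at 1.42 (adjusted p = 0.0272). Mib2 itself gave 0, 2 and 0 UMIs in the dendritic cells of the 3 libraries.

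**Figure D4:**
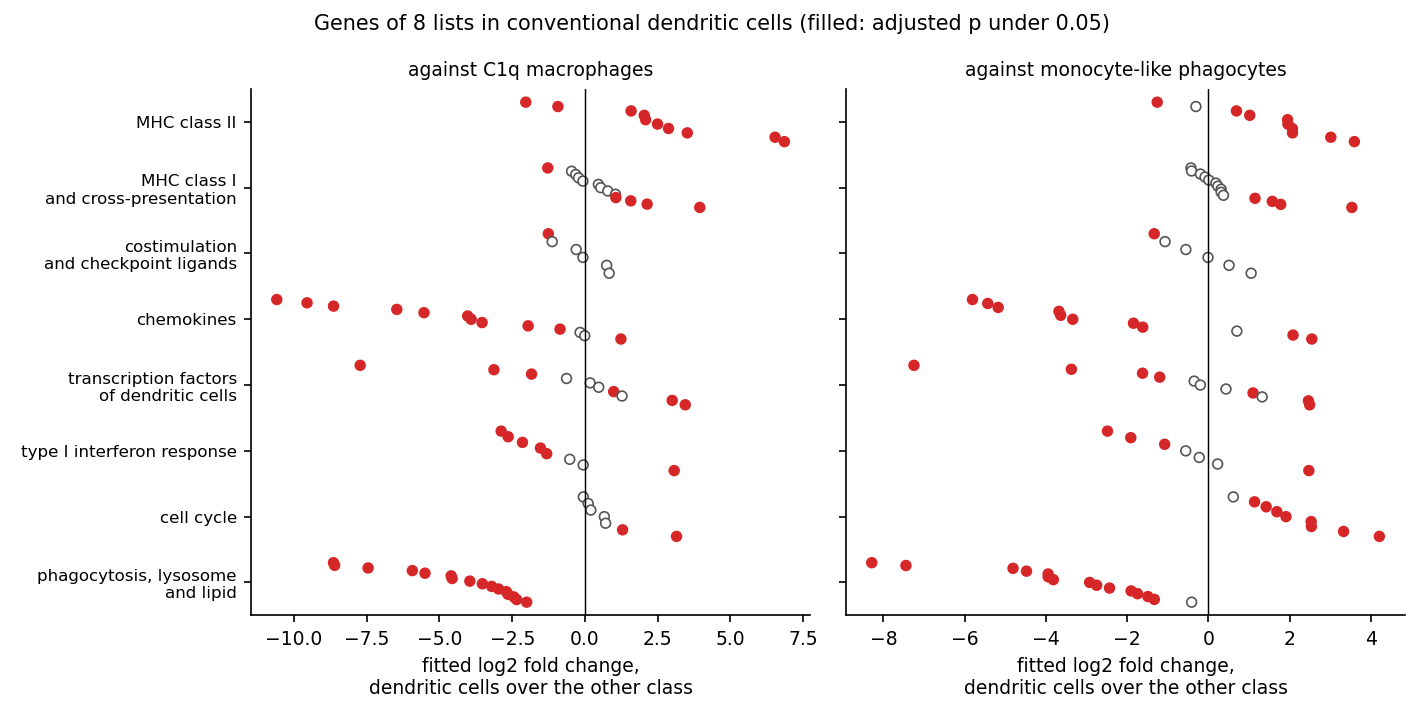
Fitted log2 fold change (edgeR, 2 libraries labelled shMib2) of the tested genes of 8 lists in conventional dendritic cells over C1q macrophages (left) and over monocyte-like phagocytes without fibroblast barcodes (right), 1 point per gene, spread vertically by rank, filled where the adjusted p is under 0.05. Class II genes lie mostly to the right of 0, chemokine and lysosome genes to the left; values of genes with no UMI in 1 class depend on the prior count and are not bounds.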

How the data were processed

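Tumors were dissociated, red blood cells were lysed, and droplets were sequenced with Chromium Single Cell V(D)J reagents (chemistry version 1.1). The authors deposited raw UMI counts for 32285 genes per barcode, made with Cell Ranger 4.0.0 on mm10 per the labels, and no cell annotation. The counts were used as deposited and summed per class and library, and CPM was computed from these sums. Members and gene lists were chosen with earlier results of these data known.

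Shares have Wilson 95% intervals, which cover counting error only. A count of 0 was read as fewer than 3 counts. Ratios resting on 1 to 3 counts have exact intervals. Class contrasts used edgeR 4.0.16 in R 4.3.3 (quasi-likelihood test, TMM, filterByExpr, library as a block, Benjamini-Hochberg adjustment at 0.05), checked on simulated counts. Up to 10 genes per direction were named by fold change among those with at least 100 CPM in the higher class and the same direction in both libraries. From each list 2 to 6 genes with most UMIs or the lowest p were described. Some list members are not reported here. State genes off the lists were chosen after their values were seen. scanpy 1.11.5 marked doublets, which stayed in the main fits. Alternatives were DESeq2 1.42.0, RLE size factors, other filters, other rule thresholds, thinned counts and a library left out. Coordinates are GENCODE mm10. The labels do not say that mice within a library can be separated. The p-values therefore rest on how the class difference varied between 2 libraries, with the dispersion moderated over genes.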

Additional observations from a re-analysis of the deposited data

How the results depend on the processing

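The ratio of the dendritic cell share, 44.9 over all barcodes, was 23.1 with at least 2 rule genes, 25.7 with at least 4, 10.2 over barcodes under the melanoma limit, 1.83 over dendritic cells and phagocytes and 1.85 on that scale without fibroblast barcodes, a setting added after seeing the data. Leaving out either library labelled shMib2 gave 32.9 to 56.9. With each barcode thinned to 1000 UMIs, the library labelled shCtrl held 0 of 8677 and no ratio was possible, against 6 of 8175 and 9 of 6914. The mean cDC1-like share, 65.2%, was 46.6% after thinning and 80.5% with at least 4 rule genes, where the cDC2-like share, 18.4%, was 4.73%. With 1 library left out, the cDC1-like share was 61.7% to 68.8%, the cDC2-like share 14.9% to 21.9% and the mature share, 14.3% as the mean, 9.38% to 19.1%. The causes were not tested.

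Genes called against macrophages as gated numbered 509, and 147 by DESeq2, 336 with at least 50 UMIs, 284 with all 3 libraries and 266 with equal UMIs per class. Against the monocyte gate they numbered 1657, and 661 by DESeq2, 873 with all 3 libraries, 288 with equal UMIs and 683 without fibroblast barcodes. Without fibroblast barcodes the 606 genes against macrophages became 148, 292, 258 and 164 in the same order of settings. The 683 against monocyte-like phagocytes became 151 by DESeq2, 354 with all 3 libraries and 172 with equal UMIs. Equal UMIs mean shallower sums by construction. Fits without the replicate block called 572 and 1405 genes as gated and 553 and 684 without fibroblast barcodes, and of the named genes only Ccl5 against macrophages lost its call there.

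Over 55 named gene results and 593 values under alternatives, 479 stayed the same, and 79 values from 1 library moved by more than the spread. The same means a kept direction and call. Values from 1 library have no call, and 18 and 13 of them kept direction within the spread. They were differences of log2 CPM with another prior count than the fit. The part of this unlike measure in the moves was not tested. In the other settings 33 calls were lost, 1 was gained (Cd274 against macrophages, with at least 4 rule genes) and 1 direction turned. That one was Cd274 against monocyte-like phagocytes, -0.56, which was 0.43 as gated (adjusted p = 0.419). DESeq2 lost 26 calls; 2 of the 55 results, both on Cd274, had no call to lose. No paired analysis of the libraries labelled shCtrl and shMib2 was possible because shCtrl held 1 dendritic cell. Depth limits every share and gene level here to cells with enough UMIs to meet the rule.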
